A study of Homo sapiens with 9 samples.

Results

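The genes described here are 35 genes of glycolysis and of the cell's response to low oxygen, out of 60675 genes counted in each of 9 RNA-seq libraries of LNCaP:C4-2 cells. They were chosen by name, from textbook knowledge of the pathways, with earlier results of these data known. Each was found in the files by Ensembl identifier. All 35 passed the filter on low counts. LNCaP:C4-2 is an enzalutamide-sensitive line of castrate-resistant prostate cancer cells derived from LNCaP. All cells carried a puromycin-selected, doxycycline-inducible shRNA and were given 1 µg/ml doxycycline for 6 days in charcoal-stripped serum, which is poor in steroid hormones, although the sample titles name a vehicle. The 3 groups of 3 libraries differed in the shRNA: a scrambled sequence (shScramble), or one of a pair of sequences against METTL3, the catalytic subunit of the m6A RNA methyltransferase (shMETTL3 guide 2 and shMETTL3 guide 1). Each shRNA was in a stably transduced population of its own, so the shRNA and that population cannot be told apart. Nothing states that the libraries of a group came from separate cultures, so the p-values measure the spread between these libraries, which may be technical.

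Glycolysis splits glucose into pyruvate through a chain of cytosolic enzymes, after hexose transporters have brought the sugar into the cell. Lactate dehydrogenase turns pyruvate into lactate, monocarboxylate transporters export it, and carbonic anhydrases help to buffer the acid. When oxygen is scarce, the prolyl hydroxylases EGLN1 and EGLN3 no longer mark HIF alpha subunits for destruction, and a HIF alpha subunit paired with ARNT then binds a short DNA element and raises transcription of many of these genes. Most of this control acts on HIF protein, which RNA-seq does not measure. Normal prostate epithelium exports citrate rather than oxidising it, and prostate cancer is known to rely more on glycolysis as it advances.

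METTL3 was measured first as a check of the labels. Its level was 31.5 ± 1.59 CPM (counts relative to the size of the library, scaled by edgeR's TMM factors, mean ± SD, n = 3 libraries) with shScramble, 16.3 ± 0.423 CPM with guide 2 and 29.7 ± 0.378 CPM in the libraries labelled guide 1. It fell with guide 2 (log2 fold change -0.95, adjusted p = 2.97e-12) and did not pass the test in the libraries labelled guide 1 (log2 fold change -0.08, adjusted p = 0.251). The latter are therefore referred to by their label. TOX4, on the other strand, overlaps 6.58% of the exonic bases of METTL3 and has 340% of its counts, so some METTL3 counts may be reads of TOX4. The libraries held 21899501 to 30897639 counts on genes. Mitochondrially encoded genes took 5.96 to 6.34% of the counts with shScramble, 3.78 to 4.92% with guide 2 and 5.08 to 5.30% in the libraries labelled guide 1. The 35 genes together took 0.833 to 0.901%, 1.10 to 1.20% and 0.904 to 1.04% of the counts in the same order. All 10 markers of luminal prostate cells that were listed passed the filter. Of these, 2 rose and 2 fell with guide 2 (adjusted p under 0.05 and at least 1.5-fold in edgeR's test), where 8.85% of all genes tested rose and 20.4% fell. In the libraries labelled guide 1, 0 rose and 6 fell, where 21.2% of all genes rose and 16.5% fell. Markers of other cell types were at low levels. None of 4 leukocyte markers passed the filter, and of 5 stromal and 3 endothelial markers only COL1A1 and VWF did.

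The HIF element has the core ACGTG in its strongest form. To show where it lies, 4 RefSeq promoter windows (build GRCh38.p14) are given, each covering 250 bases before and 50 bases after an annotated start and written on the strand of the gene. LDHA and ALDOC were higher with guide 2 and hold the core, ANKRD37 holds it and was not called, and EGLN3 was higher without it in this window. For each gene the window with most copies of ACGTG was taken. Another LDHA window (chr11:18396101-18396400) holds 0. Capitals mark ACGTG on either strand, and overlapping copies were counted as 1 site.
LDHA (chr11:18394313-18394612, plus strand): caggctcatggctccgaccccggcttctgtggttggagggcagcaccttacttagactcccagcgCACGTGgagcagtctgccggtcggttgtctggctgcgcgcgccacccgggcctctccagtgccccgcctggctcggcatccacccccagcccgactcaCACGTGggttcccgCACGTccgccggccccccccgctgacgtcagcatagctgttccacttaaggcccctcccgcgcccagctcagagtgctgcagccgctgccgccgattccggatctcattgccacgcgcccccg
ALDOC (chr17:28576846-28577145, minus strand): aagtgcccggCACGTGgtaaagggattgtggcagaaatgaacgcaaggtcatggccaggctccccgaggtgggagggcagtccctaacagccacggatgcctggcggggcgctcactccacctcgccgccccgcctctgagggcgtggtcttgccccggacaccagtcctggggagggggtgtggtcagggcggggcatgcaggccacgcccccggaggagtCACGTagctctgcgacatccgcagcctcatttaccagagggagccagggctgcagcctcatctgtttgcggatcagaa
ANKRD37 (chr4:185396591-185396890, plus strand): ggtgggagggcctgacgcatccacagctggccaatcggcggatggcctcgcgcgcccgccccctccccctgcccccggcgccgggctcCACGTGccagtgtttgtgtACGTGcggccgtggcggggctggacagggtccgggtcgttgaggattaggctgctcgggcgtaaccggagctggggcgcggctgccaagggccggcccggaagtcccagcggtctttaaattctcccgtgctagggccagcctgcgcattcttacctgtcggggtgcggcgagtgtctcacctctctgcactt
EGLN3 (chr14:33951025-33951324, minus strand): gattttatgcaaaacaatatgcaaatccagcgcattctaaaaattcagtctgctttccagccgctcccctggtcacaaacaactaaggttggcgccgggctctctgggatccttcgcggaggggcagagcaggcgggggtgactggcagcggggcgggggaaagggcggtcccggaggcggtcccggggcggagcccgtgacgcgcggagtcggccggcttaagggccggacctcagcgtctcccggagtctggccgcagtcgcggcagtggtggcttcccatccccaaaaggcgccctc

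The LDHA window holds 3 sites, at -185, -87 and -73 from the start. The ALDOC window holds 2 sites, at -240 and -28, and the ANKRD37 window holds 2, at -162 and -143. The EGLN3 window holds neither ACGTG nor the weaker core GCGTG. A window was found for 33 of the 35 genes, with 61 windows in all, since many genes have several starts. Of these windows, 22 (36.1%) hold ACGTG, against 21.4% of all 35116 promoter windows of the same length. For GCGTG the shares are 42.6% and 36.5%. At least 1 window with ACGTG was found for 7 of the 11 genes that rose with guide 2 and for 11 of the 21 genes with a window that were not called. KDM3A, the only gene with a window that fell, has none. These counts are per gene, and genes with several windows have more chances to hold a site. The 21.4% per window is therefore not their background, and a share per gene over all genes was not computed. The presence of the letters describes the window and is not evidence of binding.

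Guide 2 was compared with shScramble to ask which of these genes changed when METTL3 RNA was lowered. Of the genes that rose, 8 of 11 were glycolytic enzymes, which make up 16 of the 35. Of the 35 genes, 11 rose by at least 1.5-fold: the lactate exporter SLC16A3, the enzymes GPI, PFKP, ALDOC, TPI1, GAPDH, PGAM1, PKM and LDHA, the membrane carbonic anhydrase CA12 and the prolyl hydroxylase EGLN3. The background was 8.85% of the 19278 genes tested raised in this comparison. Only 2 of the 35 fell, the glucose transporter SLC2A3 and the histone demethylase KDM3A, where the background was 20.4% lowered. SLC2A3 was tested only because its counts in the libraries labelled guide 1 took it past the filter. The median log2 fold change of the 35 genes was 0.33, against -0.04 for all genes tested. A gene counts as changed here at an adjusted p-value under 0.05 (edgeR's quasi-likelihood test, Benjamini-Hochberg over all genes tested) and a change of at least 1.5-fold.

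Abundance bears on this reading. All genes tested were split into 3 classes of equal size by mean level, and 27 of the 35 genes fell in the highest class. In that class 10.7% of genes rose and 3.38% fell with guide 2, and its median log2 fold change was 0.16. The 27 genes had 9 raised, 1 lowered and a median of 0.46. Scaling matters too. When libraries were scaled by size alone, the median of all genes moved by -0.15, and 7 of the 35 genes were raised. Over all genes, 1706 rose and 3939 fell with TMM, and 1012 rose and 4865 fell by library size.

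**Figure D1:**
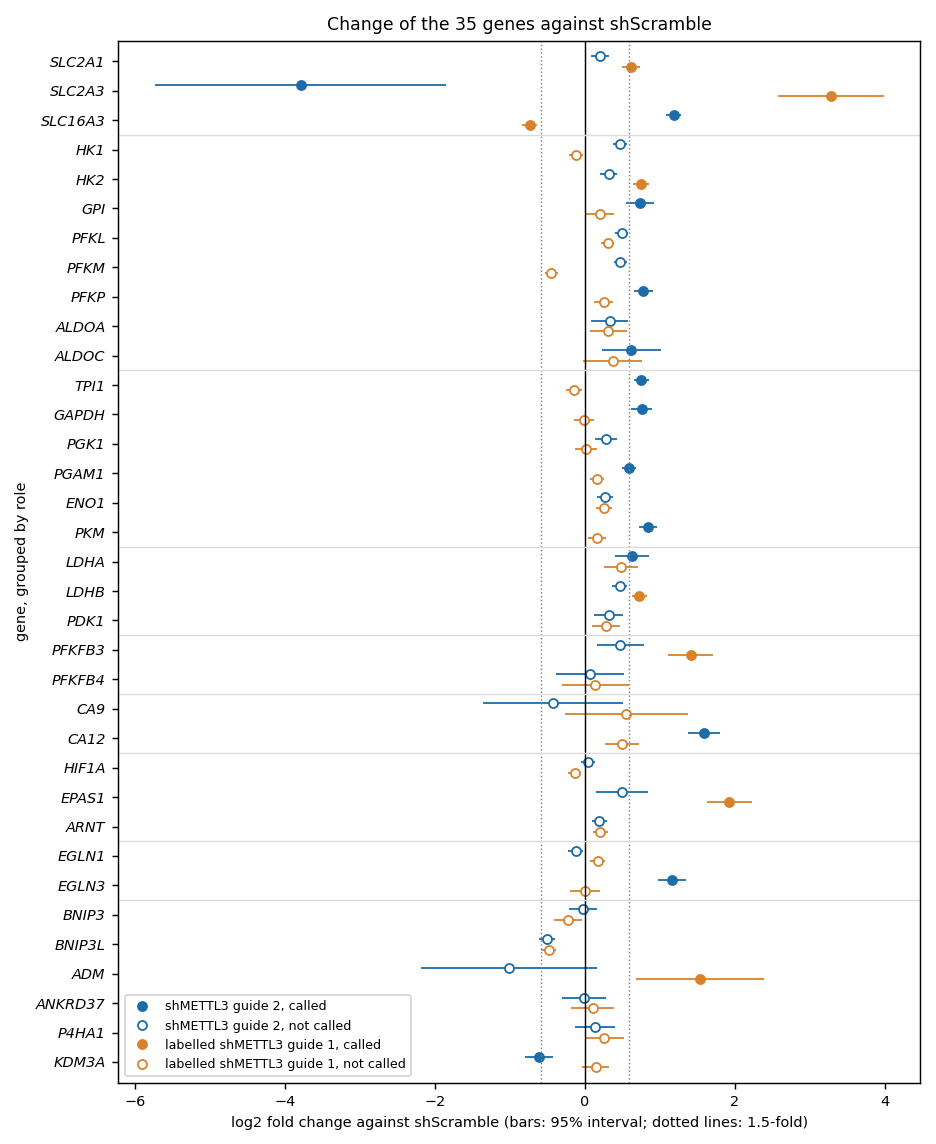
Log2 fold change against shScramble of each of the 35 genes, by role from transporters at the top to hypoxia targets at the bottom, with 95% intervals. Filled points pass the test and the 1.5-fold limit (dotted lines). In guide 2 (blue) every one of the 16 enzymes from HK1 to LDHB lies right of 0, at 0.27 to 0.84.

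The 3 transporters took 3 different courses. SLC16A3 (MCT4), which exports lactate, lies on chromosome 17 from 82228397 to 82261129. It was at 103, 107 and 102 CPM in the shScramble libraries, 238, 226 and 245 CPM with guide 2, and 60.8, 62.0 and 64.1 CPM in the libraries labelled guide 1. The 3 groups did not overlap, and guide 2 was highest. The log2 fold change was 1.18 with guide 2 (SE 0.046, adjusted p = 9.84e-18) and -0.74 in the libraries labelled guide 1 (SE 0.0476, adjusted p = 8.51e-14), so SLC16A3 rose in one and fell in the other. The direct test between the guides gave 1.92 (adjusted p = 2.51e-23). An overlap with CSNK1D, which runs on the other strand, covers 5.36% of the exonic bases of SLC16A3. CSNK1D had 155% of the counts of SLC16A3, and reads in the shared bases cannot be assigned to one strand.

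SLC2A3 (GLUT3) was close to undetected in these cells. It had 9, 8 and 5 counts with shScramble, 0, 1 and 0 counts with guide 2, and 65, 97 and 56 counts in the libraries labelled guide 1. No library with guide 2 reached the lowest shScramble library. SLC2A3 passed the filter on low counts only through the libraries labelled guide 1. On the summed counts SLC2A3 was 20.01-fold lower with guide 2 than with shScramble (95% interval 3.23 to 826, exact, counting error only), and its call rests on these few reads. Its 3 pseudogenes held 22.2 to 75.0% as many counts as SLC2A3 with shScramble, 2 to 4 counts a library with guide 2, and 3.09 to 9.23% as many in the libraries labelled guide 1, so reads may be split among them. It rose 9.75-fold in the libraries labelled guide 1 (adjusted p = 1.96e-09). SLC2A1 (GLUT1), the main basal glucose transporter, was at 46.3, 46.3 and 47.6 CPM with shScramble, 53.8, 49.2 and 58.6 CPM with guide 2, and 66.9, 74.4 and 73.5 CPM in the libraries labelled guide 1. Both sets of libraries were above shScramble without overlap. The change passed the fold limit only in the libraries labelled guide 1 (log2 fold change 0.62, adjusted p = 3.00e-10), against 0.20 with guide 2 (adjusted p = 0.00463). That call was lost without the library labelled guide 1 replicate 2 (0.58).

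The glycolytic enzymes themselves were higher with guide 2 throughout the pathway. All 16, from the hexokinases to the lactate dehydrogenases, had a log2 fold change between 0.27 and 0.84, with a median of 0.54. Of them, 8 passed the test and the fold limit, where 8.85% of all genes rose and 20.4% fell. The same 16 enzymes ran from -0.45 to 0.75 in log2 fold change under the label guide 1, with a median of 0.23 and 12 of them above 0. Only HK2 and LDHB passed the test and the fold limit, both raised, where 21.2% of all genes rose and 16.5% fell. Among all 19278 genes tested, 9028 had a log2 fold change above 0 with guide 2 and 9444 under the label guide 1.

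The upper steps of the pathway spend ATP to prepare the sugar. Hexokinases phosphorylate glucose, and HK1 was at 190, 191 and 183 CPM with shScramble, 266, 249 and 267 CPM with guide 2, and 173, 179 and 170 CPM in the libraries labelled guide 1. HK2, the inducible hexokinase, was at 89.5, 78.3 and 86.7 CPM, 103, 107 and 106 CPM, and 139, 153 and 135 CPM in the same order. HK1 was highest with guide 2 and HK2 in the libraries labelled guide 1. HK2 rose there (log2 fold change 0.75, SE 0.0528, adjusted p = 6.21e-13), while with guide 2 HK1 changed by 0.47 and HK2 by 0.32, both below the fold limit.

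GPI converts glucose 6-phosphate into fructose 6-phosphate. It was at 421, 379 and 391 CPM with shScramble, 647, 610 and 722 CPM with guide 2, and 399, 509 and 467 CPM in the libraries labelled guide 1. All guide 2 libraries lay above all others. GPI rose with guide 2 (log2 fold change 0.73, SE 0.0861, adjusted p = 1.29e-05).

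Phosphofructokinase catalyses the committed step and has muscle (PFKM), liver (PFKL) and platelet (PFKP) forms. PFKP was at 102, 88.0 and 97.0 CPM with shScramble, 158, 165 and 170 CPM with guide 2, and 104, 125 and 112 CPM in the libraries labelled guide 1. It rose with guide 2 (log2 fold change 0.78, SE 0.0603, adjusted p = 1.84e-10). PFKM was at 234, 228 and 225 CPM, 321, 311 and 319 CPM, and 170, 171 and 163 CPM in the same order of groups. It was thus highest with guide 2 and lowest in the libraries labelled guide 1, with no overlap. Its log2 fold changes of 0.47 and -0.45 missed the fold limit on both sides, but the guides differed by 0.92 (adjusted p = 4.68e-17). PFKL was at 185, 180 and 191 CPM, 260, 256 and 265 CPM, and 226, 226 and 233 CPM, a log2 fold change of 0.49 with guide 2 and 0.30 in the libraries labelled guide 1. SENP1, on the other strand, overlaps 8.62% of the exonic bases of PFKM.

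Aldolase cleaves the phosphorylated sugar. ALDOA, the main form, was at 712, 653 and 656 CPM with shScramble, 797, 792 and 955 CPM with guide 2, and 706, 918 and 881 CPM in the libraries labelled guide 1. ALDOC was at 38.8, 34.5 and 36.0 CPM, 51.6, 52.6 and 64.2 CPM, and 38.7, 58.2 and 44.6 CPM. The libraries labelled guide 1 spread widely for both genes and reached into the range of the other groups. ALDOC rose with guide 2 (log2 fold change 0.62, SE 0.165, adjusted p = 0.0145), just past the fold limit. It lost the call when shScramble replicate 2 was left out (log2 fold change 0.58, adjusted p = 0.053) or guide 2 replicate 3 (0.52).

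The lower steps of the pathway yield ATP. The 6 enzymes of these steps had a median log2 fold change of 0.67 with guide 2, against 0.48 for the 8 enzymes of the upper steps. TPI1, which interconverts the triose phosphates, was at 727, 671 and 701 CPM with shScramble, 1149, 1135 and 1259 CPM with guide 2, and 607, 658 and 635 CPM in the libraries labelled guide 1. GAPDH, which oxidises glyceraldehyde 3-phosphate and lies on chromosome 12 from 6533927 to 6538374, was at 1331, 1242 and 1241 CPM, 2023, 2090 and 2327 CPM, and 1113, 1349 and 1317 CPM. Every guide 2 library exceeded every other library for both genes. TPI1 rose by a log2 fold change of 0.76 (SE 0.0514, adjusted p = 7.86e-13) and GAPDH by 0.76 (SE 0.0655, adjusted p = 1.39e-09).

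PKM, which makes pyruvate, was at 720, 631 and 662 CPM with shScramble, 1148, 1153 and 1301 CPM with guide 2, and 704, 797 and 747 CPM in the libraries labelled guide 1. It rose most among the enzymes (log2 fold change 0.84, SE 0.0587, adjusted p = 4.52e-12). The counts are per gene, so the M1 and M2 splice forms of PKM were not resolved. PGAM1, a phosphoglycerate mutase, was at 253, 258 and 258 CPM, 369, 381 and 403 CPM, and 276, 285 and 296 CPM. Its groups did not overlap, and its log2 fold change of 0.59 (SE 0.0458, adjusted p = 1.42e-11) lay just past the limit of 0.58, so that leaving out shScramble replicate 1 (0.58) or guide 2 replicate 3 (0.55) ended the call. PGK1 and ENO1 changed less, by 0.28 and 0.27 with guide 2. ENO1 was higher in the libraries labelled guide 1 to a like extent (0.25), and PGK1 was not (0.01, adjusted p = 0.861).

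Lactate dehydrogenase is a tetramer of A subunits, which favour lactate formation, and B subunits. LDHA was at 394, 341 and 441 CPM with shScramble, 561, 605 and 652 CPM with guide 2, and 500, 595 and 539 CPM in the libraries labelled guide 1. LDHB was at 359, 354 and 375 CPM, 492, 486 and 522 CPM, and 625, 566 and 611 CPM. Both genes were above shScramble in every shMETTL3 library. LDHA passed the fold limit with guide 2 (log2 fold change 0.63, SE 0.1, adjusted p = 0.000412), and LDHB in the libraries labelled guide 1 (0.73, SE 0.0488, adjusted p = 2.03e-13). The LDHA call was lost without shScramble replicate 2 (0.54), its lowest library, or without guide 2 replicate 3 (0.58). PDK1, a kinase that inhibits pyruvate dehydrogenase, changed by 0.32 with guide 2 and 0.28 in the libraries labelled guide 1, both under the fold limit.

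**Figure D2:**
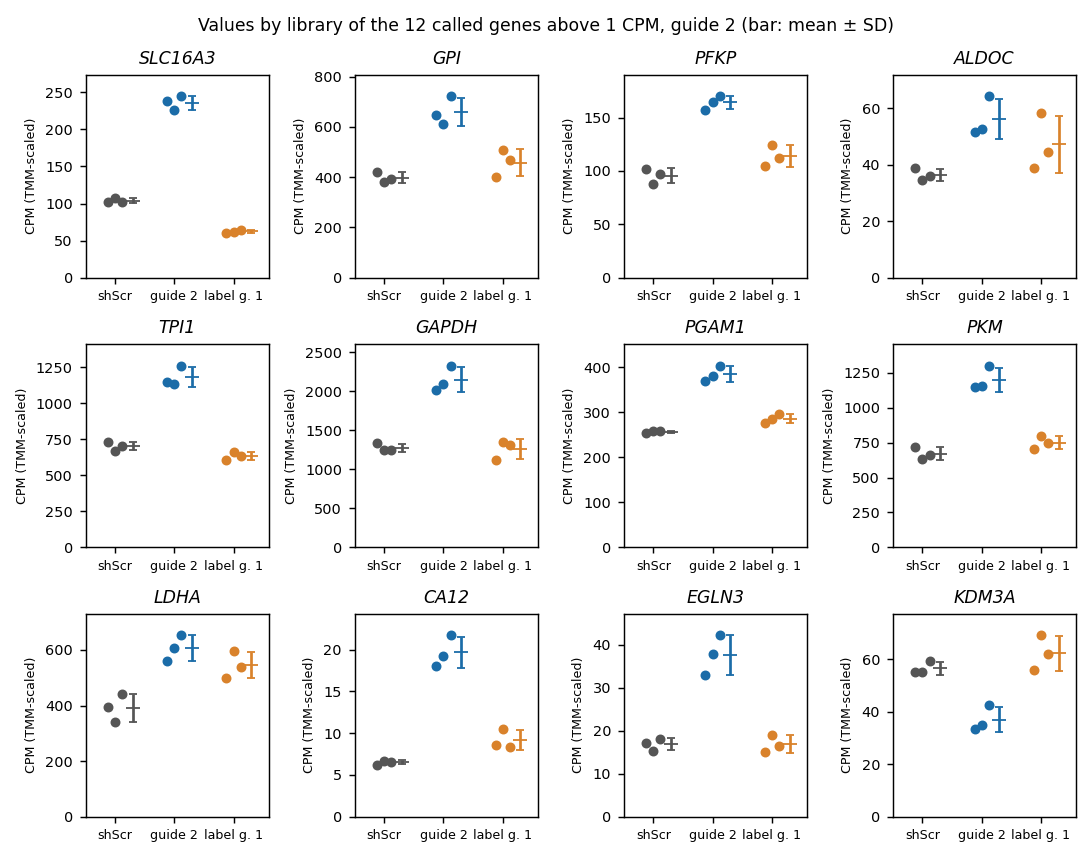
TMM-scaled CPM of each library for the 12 genes above 1 CPM that passed the test with guide 2, with mean ± SD of 3 libraries beside the points and axes from 0. The guide 2 libraries lie above all shScramble libraries for 11 genes and below them for KDM3A, the last panel. The genes were chosen by this same test, so that separation is largely fixed in advance.

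PFKFB3 makes fructose 2,6-bisphosphate, the activator of phosphofructokinase, and PFKFB4 is its relative with more phosphatase activity. PFKFB3 was at 28.3, 23.6 and 30.2 CPM with shScramble, 34.2, 39.2 and 39.9 CPM with guide 2, and 65.9, 85.8 and 66.1 CPM in the libraries labelled guide 1. PFKFB4 was at 24.1, 18.7 and 21.5 CPM, 20.03, 24.2 and 23.2 CPM, and 18.5, 30.3 and 22.04 CPM, with all groups overlapping. PFKFB3 rose in the libraries labelled guide 1 (log2 fold change 1.41, SE 0.13, adjusted p = 1.00e-05) and changed by 0.47 with guide 2 (adjusted p = 0.0157), under the fold limit. The guides differed by -0.94 for PFKFB3 (adjusted p = 0.000131).

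The membrane carbonic anhydrases, which turn carbon dioxide and water into bicarbonate and acid outside the cell, were measured next. CA12, on chromosome 15 from 63321378 to 63382161, was at 6.24, 6.72 and 6.57 CPM with shScramble, 18.1, 19.3 and 21.7 CPM with guide 2, and 8.64, 10.5 and 8.33 CPM in the libraries labelled guide 1. Its 3 groups did not overlap. CA12 had the largest rise of the 35 genes with guide 2 (log2 fold change 1.59, SE 0.104, adjusted p = 3.33e-13). CA9, one of the most hypoxia-responsive genes known, was at 3.01, 1.38 and 3.24 CPM, 1.56, 1.71 and 2.31 CPM, and 2.14, 5.22 and 3.65 CPM. The groups overlapped, and neither log2 fold change passed the test (-0.43 with an interval of -1.36 to 0.50, and 0.55 with -0.27 to 1.37). CA9 turned on single libraries, since it passed as lowered with guide 2 without shScramble replicate 2 (-0.75, adjusted p = 0.048) and as raised in the libraries labelled guide 1 without replicate 1 (0.83). ARHGEF39, on the other strand, overlaps 38.5% of the exonic bases of CA9 and has 812% of its counts, so the CA9 values may hold reads of that gene.

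EGLN3 encodes a prolyl hydroxylase that is itself a HIF target, and lies on chromosome 14 from 33924231 to 34462774. It was at 17.2, 15.4 and 18.0 CPM with shScramble, 33.0, 37.8 and 42.2 CPM with guide 2, and 14.99, 19.1 and 16.6 CPM in the libraries labelled guide 1. Guide 2 was higher without overlap (log2 fold change 1.16, SE 0.0925, adjusted p = 3.03e-10), while the libraries labelled guide 1 were centred on shScramble (0.00, interval -0.20 to 0.21). EGLN1, the main oxygen sensor, changed by -0.12 with guide 2 and 0.17 in the libraries labelled guide 1.

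HIF1A, the alpha subunit that drives most glycolytic targets, was at 123, 128 and 124 CPM with shScramble, 129, 126 and 132 CPM with guide 2, and 114, 111 and 116 CPM in the libraries labelled guide 1. Its change with guide 2 was small, 0.04 with an interval of -0.05 to 0.13, and -0.11 with libraries scaled by size alone. EPAS1 (HIF-2 alpha) was at 3.49, 3.01 and 2.41 CPM, 3.51, 4.35 and 4.90 CPM, and 9.51, 12.6 and 12.3 CPM. It rose in the libraries labelled guide 1 (log2 fold change 1.93, SE 0.147, adjusted p = 3.20e-12), where every library was above all others, and changed by 0.50 with guide 2 (adjusted p = 0.013), under the fold limit, which it passed without shScramble replicate 1 (0.63) or guide 2 replicate 1 (0.62). ARNT, the common partner, changed by 0.19 and 0.20.

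The remaining targets are known for their response to hypoxia rather than for glycolysis. Of these 6 genes, 0 rose and 1 fell with guide 2, close to the backgrounds of 8.85% raised and 20.4% lowered, and their median log2 fold change was -0.27. EGLN3, a HIF target that rose, was listed with the oxygen sensors, and CA12, which also rose, with the carbonic anhydrases. Neither is among the 6, so these counts depend on how the roles were assigned. KDM3A, a histone demethylase on chromosome 2 from 86440647 to 86492716, was at 55.1, 54.9 and 59.3 CPM with shScramble, 33.6, 34.8 and 42.5 CPM with guide 2, and 55.6, 69.0 and 62.1 CPM in the libraries labelled guide 1. It fell with guide 2 (log2 fold change -0.61, SE 0.0874, adjusted p = 1.82e-05), with no overlap. The call lay close to the fold limit and was lost without shScramble replicate 3 (-0.58), guide 2 replicate 1 (-0.54) or guide 2 replicate 2 (-0.57). The mitophagy receptor BNIP3L changed by -0.50 and -0.48 in the 2 guides, under the limit in both, and its relative BNIP3 by -0.03 and -0.23. P4HA1, a collagen prolyl hydroxylase, and ANKRD37 passed neither test. UFSP2, on the other strand, overlaps 35.2% of the exonic bases of ANKRD37 and has 628% of its counts, so the ANKRD37 values may hold reads of UFSP2. ADM, the vasodilator peptide adrenomedullin, had 27, 43 and 13 counts with shScramble, 13, 2 and 18 counts with guide 2, and 51, 84 and 106 counts in the libraries labelled guide 1. It rose in the latter (log2 fold change 1.54, SE 0.394, adjusted p = 0.00327). With guide 2 its log2 fold change of -1.01 did not pass (adjusted p = 0.122), but did so without guide 2 replicate 3 (-1.60, adjusted p = 0.0356) or the library labelled guide 1 replicate 1 (-1.01, adjusted p = 0.0493).

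In the libraries labelled guide 1, 7 of the 35 genes rose (SLC2A1, SLC2A3, HK2, LDHB, PFKFB3, EPAS1 and ADM) and SLC16A3 fell, where 21.2% of all genes rose and 16.5% fell. The median log2 fold change was 0.21, against -0.02 for all genes tested. These comparisons share the shScramble libraries. The guides were therefore also compared directly, and 7 genes were higher with guide 2 (SLC16A3, PFKM, TPI1, GAPDH, PKM, CA12 and EGLN3) and 6 lower (SLC2A3, PFKFB3, CA9, EPAS1, ADM and KDM3A). The background of this comparison was 19.1% raised and 28.2% lowered. HK1 missed the fold limit with a log2 fold change of 0.58, and passed it in 9 of the 16 alternatives that kept the limit (up to 0.62).

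**Figure D3:**
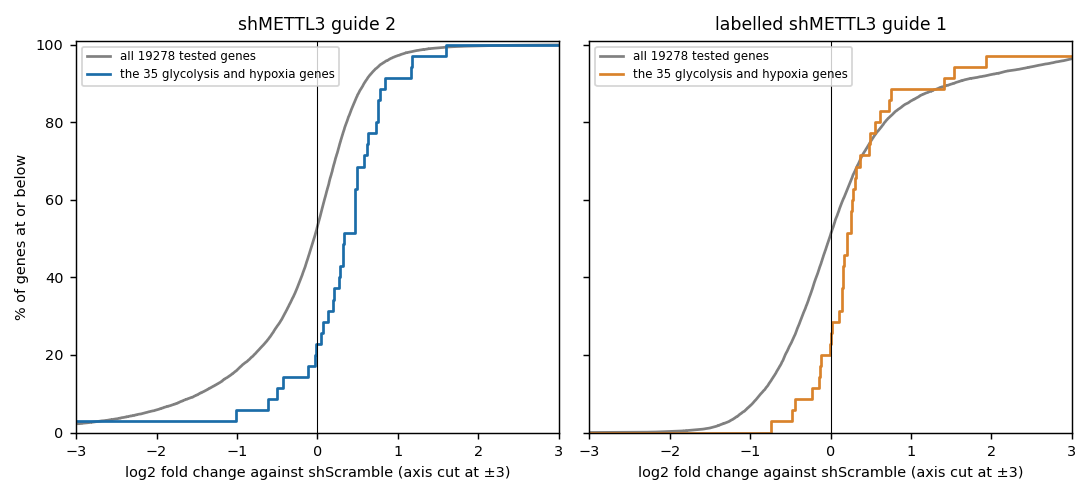
Cumulative share of genes at or below each log2 fold change, for the 35 genes (coloured) and all 19278 genes tested (grey), with guide 2 on the left and the libraries labelled guide 1 on the right. The median of the 35 genes was 0.33 on the left and 0.21 on the right, against -0.04 and -0.02 for all genes.

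Several steps are served by a pair of related genes, and the balance within 8 pairs was followed in each library. Levels were scaled for this by the length of all annotated exons of a gene. The size of a share therefore depends on the annotation, whereas a change in the ratio between groups does not. With 3 libraries against 3, an exact two-sided permutation test cannot give a p-value below 0.1, and over the 16 comparisons the smallest adjusted value was 0.16. HK2 made up 31.1 ± 1.79% of HK2 and HK1 together (SD, n = 3) with shScramble, 28.9 ± 1.13% with guide 2 and 45.0 ± 0.937% in the libraries labelled guide 1. PFKP made up 38.6 ± 1.59%, 43.8 ± 1.13% and 50.4 ± 2.18% of PFKP and PFKM. PFKL made up 39.8 ± 1.01%, 40.1 ± 0.296% and 52.6 ± 1.06% of PFKL and PFKM. All 3 shares lay above shScramble without overlap in the libraries labelled guide 1, whereas with guide 2 only that of PFKP did.

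EPAS1 made up 1.65 ± 0.3% of EPAS1 and HIF1A with shScramble, 2.27 ± 0.345% with guide 2 and 6.63 ± 0.978% in the libraries labelled guide 1. PFKFB4 made up 41.3 ± 2.21%, 34.8 ± 0.73% and 22.4 ± 2.05% of PFKFB4 and PFKFB3. SLC2A3 stayed under 4% of SLC2A3 and SLC2A1 in every library, at most 3.62%. These groups did not overlap for PFKFB4 and SLC2A3, and EPAS1 with guide 2 overlapped shScramble.

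The aldolase and lactate dehydrogenase shares overlapped shScramble in the libraries labelled guide 1. ALDOC made up 10.2 ± 0.185% of ALDOC and ALDOA with shScramble, 12.2 ± 0.207% with guide 2 and 10.6 ± 1.1% in the libraries labelled guide 1, and only guide 2 was clear of shScramble. LDHA made up 34.1 ± 2.27%, 36.8 ± 1.21% and 30.4 ± 2.95% of LDHA and LDHB, with overlap in both comparisons (permutation p = 0.2 for each). These low shares rest on the exon lengths, 6210 bases for LDHA and 2983 for LDHB. Unscaled, LDHA (392 CPM) was above LDHB (363 CPM) on average with shScramble.

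**Figure D4:**
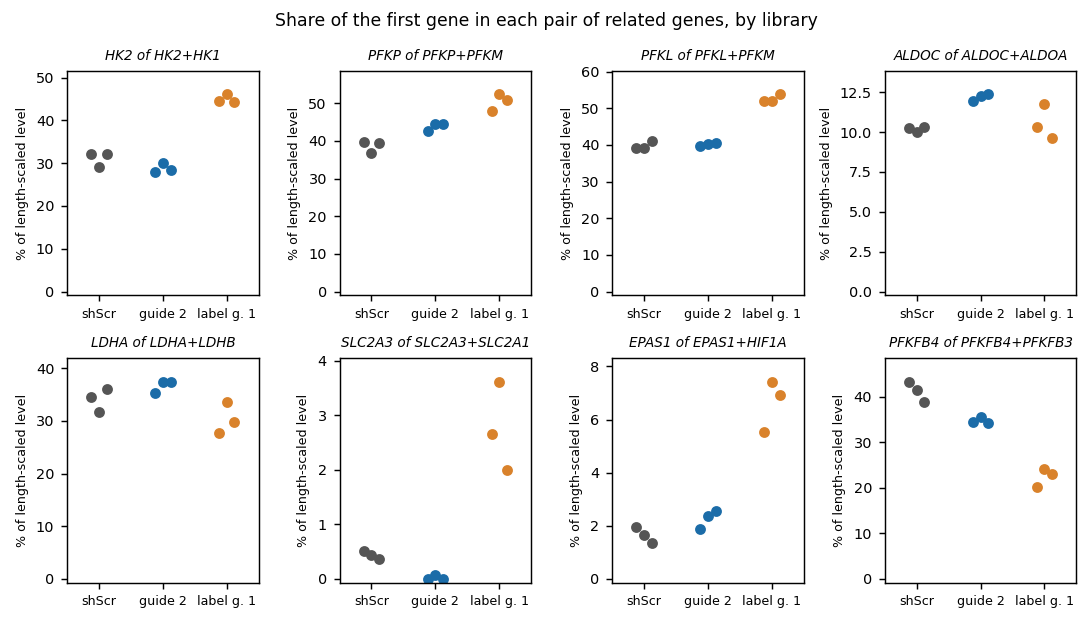
Share of the first-named gene in the length-scaled level of each of 8 gene pairs, 1 point per library, axes from about 0. The libraries labelled guide 1 (orange) lie apart from shScramble (grey) for HK2, PFKP, PFKL, SLC2A3, EPAS1 and PFKFB4, and overlap it for ALDOC and LDHA.

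Per kilobase of exon, the order of the genes was dominated by the lower steps of the pathway. With shScramble GAPDH was highest at 426 ± 17.3 RPKM (CPM per kilobase of exon, n = 3), then ENO1 at 307 ± 16.5 RPKM and TPI1 at 259 ± 10.5 RPKM. LDHB (122 ± 3.68 RPKM), ALDOA (109 ± 5.43 RPKM), PGK1 (107 ± 9.7 RPKM) and PGAM1 (99.8 ± 1.03 RPKM) followed. Of these, ALDOA and PGK1 were within their spread of the next in order, and PGAM1 stood clear of PKM (78.3 ± 5.24 RPKM). This order depends on the length of all annotated exons, 2568 bases for PGAM1 and 8571 for PKM. Unscaled, PKM (671 CPM) was above PGAM1 (256 CPM) on average with shScramble. With guide 2 TPI1 (437 ± 25.2 RPKM) stood above ENO1 (371 ± 14.3 RPKM), the reverse of the order with shScramble. The lowest were SLC2A3 (0.0412 ± 0.0059 RPKM), ADM (0.343 ± 0.145 RPKM) and EPAS1 (0.407 ± 0.0745 RPKM), and ADM and EPAS1 did not differ beyond their spread. HIF1A, at 24.3 ± 0.524 RPKM, was above EPAS1 in each group.

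The genes also varied together among the libraries of a group. For the 34 genes above a mean of 1 CPM, guide 2 replicate 3 was the highest of its 3 libraries for 30 genes and the lowest for 0, whereas over 15442 genes at that level it was the highest for 39.3%. Among the libraries labelled guide 1, replicate 2 was highest for 24 genes and replicate 1 lowest for 27, against 34.0% and 39.5% of all genes. In shScramble, replicate 2 was lowest for 22 genes, against 31.2%. Guide 2 replicate 3 also had the lowest total count of its group (23790004), the fewest genes with a count of all 9 libraries (24884) and the lowest mitochondrial share (3.78%). The library labelled shScramble replicate 2 had the highest total count (30897639). The part of these in the order was not tested. The median coefficient of variation of the 35 genes was 6.06%, 6.12% and 8.76% in shScramble, guide 2 and the libraries labelled guide 1. Over the 15442 genes at a mean of at least 1 CPM it was 5.56%, 5.66% and 6.20% in the same order. SLC2A3 is among the 35 genes but under that level. The widest spreads were those of genes with few counts, SLC2A3, ADM and CA9, and CA9 ran from 1.38 to 3.24 CPM within shScramble.

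A further 58 genes of the same pathways were listed, with 51 passing the filter. With guide 2, 4 rose and 14 fell of the 51, where 8.85% of all genes rose and 20.4% fell, and their median log2 fold change was -0.06. The 4 were the neuron-type enolase ENO2, the pyruvate dehydrogenase kinase PDK3, the HIF antagonist CITED2 and the transferrin receptor TFRC (named after their values were seen, TFRC apart). For the libraries labelled guide 1, 13 rose and 6 fell (backgrounds 21.2% and 16.5%), with a median of -0.03. Between the guides, 9 were higher and 16 lower with guide 2 (backgrounds 19.1% and 28.2%).

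VEGFA, the angiogenic growth factor and the best-known HIF target, was at 466, 454 and 514 CPM with shScramble, 241, 234 and 241 CPM with guide 2, and 436, 428 and 401 CPM in the libraries labelled guide 1. It fell with guide 2 without overlap (log2 fold change -1.0, SE 0.0502, adjusted p = 1.51e-15), in the opposite direction to the glycolytic enzymes. TFRC was at 205, 234 and 223 CPM, 518, 534 and 535 CPM, and 160, 147 and 159 CPM, and rose with guide 2 (1.26, SE 0.05, adjusted p = 1.38e-17). The guides differed by 1.77 for TFRC.

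Called genes of this list were followed where their mean over all 9 libraries was at least 1 CPM. Of these, several that fell with guide 2 were higher in the libraries labelled guide 1. HKDC1, a hexokinase-like gene under that level and named after its values were seen, instead fell in both (log2 fold changes -2.13 and -1.43). PGM1, which links glycogen to glycolysis, was at 2.78, 3.23 and 3.15 CPM with shScramble, 0.564, 0.638 and 1.04 CPM with guide 2, and 50.2, 50.9 and 55.7 CPM in the libraries labelled guide 1 (log2 fold changes -2.03 and 4.10). RORA, a nuclear receptor, was at 3.79, 4.87 and 3.81 CPM, 1.39, 1.28 and 0.997 CPM, and 11.4, 13.0 and 10.1 CPM (-1.77 and 1.46). The groups of neither gene overlapped. LDHC, the testis lactate dehydrogenase, had 70 counts in all with shScramble, 4 with guide 2 and 731 in the libraries labelled guide 1. SLC2A10, a further sugar transporter, had 58, 7 and 712 counts. On summed counts LDHC was 15.9-fold lower (95% interval 5.95 to 60.0, exact, counting error only) and SLC2A10 7.54-fold lower (3.43 to 19.6) with guide 2.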

How the data were processed

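Gene counts of 9 RNA-seq libraries were grouped by the sample labels. The authors trimmed reads with Trim Galore and cutadapt, discarded low-quality reads, used STAR for alignment to GRCh38 and featureCounts for counting. The authors deposited raw counts per gene, 1 library per file, without normalization. The strand setting and the handling of reads matching several genes are not given in the sources used here. Of 157 pseudogenes of 17 of the 35 genes, those of 1 gene (SLC2A3) held over 5% as many counts as the gene.

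Counts were analysed in R 4.3.3 with edgeR 4.0.16 (TMM factors, filterByExpr with minimum count 10 and minimum total 15, robust quasi-likelihood F test, 1 model over all 9 libraries). Calls needed a fold change of at least 1.5 and a p-value under 0.05 after Benjamini-Hochberg adjustment over 19278 genes. CPM and RPKM were computed from these scaled counts, and SDs are over 3 libraries. Intervals of fold changes are 95% intervals of the fit. For genes near 0, ratios of summed counts have exact binomial intervals, which cover counting error only. For pairs, log2 ratios of length-scaled counts plus 0.5 were compared by an exact permutation test. Promoter windows were taken from RefSeq.

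The 35 genes, the further list of 58 and the markers were chosen with earlier results of these data known. The values of 1 marker gene are not reported here. Values are given for genes called with guide 2, called in opposite directions or belonging to a pair, and for METTL3 and VEGFA. They are also given for the 5 further called genes with the largest change at a mean of at least 1 CPM. All are by library, except METTL3 (mean ± SD) and LDHC and SLC2A10 (counts summed over each group). Alternatives were DESeq2 1.42.0, its size factors, library size alone, no filter, a filter at a mean of 1 CPM, a fit of the 6 compared libraries, a block for the replicate number, leaving out single libraries, and calls by adjusted p alone. The procedure was tested on simulated data. Total counts per library were 21899501 to 30897639, and 3 counts correspond to 0.0971 to 0.137 CPM.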

Additional observations from a re-analysis of the deposited data

Results flagged for a closer look

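The changes of 13 of the 35 genes differed between the guides in a direct test (edgeR's quasi-likelihood test, adjusted p under 0.05 and at least 1.5-fold), which is why they are listed. In the same comparison 19.1% of all genes were higher and 28.2% lower with guide 2, against 7 and 6 of the 35. Higher with guide 2 than in the libraries labelled guide 1 were SLC16A3 (log2 fold change 1.92), EGLN3 (1.16), CA12 (1.10), PFKM (0.92), TPI1 (0.90), GAPDH (0.77) and PKM (0.68). Lower were SLC2A3 (-7.08, fitted on 1 count with guide 2), ADM (-2.55), EPAS1 (-1.43), CA9 (-0.98), PFKFB3 (-0.94) and KDM3A (-0.75). The CA9 difference (adjusted p = 0.0454) had overlapping groups, and its call was lost in 6 of the 9 fits that left out 1 library.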

How the results depend on the processing

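Depth limits SLC2A3, ADM and CA9, whose values rest on few counts. For guide 2 against shScramble, library size alone left 7 of the 35 genes raised, since GPI, ALDOC, PGAM1 and LDHA missed the fold limit. With a minimum mean of 1 CPM (8 raised) or only the 6 libraries compared (10 raised), SLC2A3 was removed by the filter, which left 1 gene lowered. Across the fits that left out 1 library, 8 to 12 genes were raised and 1 to 3 lowered. Genes at the fold limit (ALDOC, PGAM1, LDHA, KDM3A) lost their call in some of these settings.

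Without a fold limit (adjusted p alone), 11910 genes were called with guide 2, 5792 up and 6118 down. The 35 genes had 24 raised and 4 lowered, and the further genes had 17 raised and 20 lowered. Under the label guide 1, 13188 genes were called, 6818 up and 6370 down. The 35 genes had 18 raised and 7 lowered, and the further genes had 19 raised and 21 lowered. Between the guides 14386 genes were called, 6693 higher and 7693 lower with guide 2. The 35 genes had 14 higher and 10 lower, and the further genes had 22 higher and 22 lower.

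The same-numbered libraries did not deviate together (correlations of -0.0981 to 0.0529, and 0 of 9 libraries correlated best with its own number), so the number was not taken as a pairing. With the replicate block, 10 of the 35 genes were raised and 2 lowered with guide 2, and 5494 genes were called in all.

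Over 1676 values of the 35 genes under the alternatives, 1584 kept their direction and side of the threshold, 26 lost and 20 gained a call, and 46 changed sign. None of the values that changed sign was called. With guide 2, sign changes came with library size alone for PFKFB4 (-0.081), HIF1A (-0.11) and P4HA1 (-0.015), with a minimum of 1 CPM for HIF1A (-0.0071), with DESeq2 for ANKRD37 (0.0077) and without the filter for ANKRD37 (0.0085). In the libraries labelled guide 1 they came for EGLN3 (library size alone -0.0092, minimum of 1 CPM -0.0016, replicate block -0.0030) and GAPDH (DESeq2 0.0045). Between the guides they came with library size alone for ALDOA (-0.12), ENO1 (-0.12) and PDK1 (-0.10), with a minimum of 1 CPM for ALDOA (-0.021), ENO1 (-0.025) and PDK1 (-0.0073), and without the filter for ARNT (0.010) and BNIP3L (0.0037). Ranges with 1 library left out crossed 0 with guide 2 for PFKFB4 (-0.024 to 0.17), BNIP3 (-0.094 to 0.051) and ANKRD37 (-0.12 to 0.084). In the libraries labelled guide 1 they did so for GAPDH (-0.071 to 0.073), PGK1 (-0.070 to 0.070), PFKFB4 (-0.083 to 0.29), EGLN3 (-0.097 to 0.086) and ANKRD37 (-0.0081 to 0.20). Between the guides they did so for ALDOA (-0.085 to 0.10), ENO1 (-0.0049 to 0.057), PDK1 (-0.059 to 0.14), PFKFB4 (-0.22 to 0.16), ARNT (-0.029 to 0.027) and BNIP3L (-0.038 to 0.015). The log2 ratio of ALDOC to ALDOA in the libraries labelled guide 1 ranged from -0.038 to 0.12. The cause of these changes was not tested.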
